A study of Mus musculus with 2 samples.

Results

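The interstitial collagens examined here were 10 genes, taken by symbol from the 32285 genes counted: Col1a1, Col1a2, Col3a1, Col5a1, Col5a2, Col6a1, Col6a2, Col6a3, Col12a1 and Col14a1. Their transcripts were counted as unique molecular identifiers (UMIs), each standing for 1 captured RNA molecule, in single cells of mouse embryos. The study asked what becomes of cells of the Myf5 lineage when the splicing factor SRSF2 is deleted in them. Trunks and limbs of E14 embryos, decapitated and eviscerated, were dissociated, tdTomato+ cells were sorted, and 1 droplet library with 3′ end counting was made per genotype. Mutant embryos (SRSF2f/f/Myf5-Cre/tdT) carried 2 floxed Srsf2 alleles and littermate controls (SRSF2f/w/Myf5-Cre/tdT) carried 1. All of them also carried Myf5-Cre, which expresses Cre recombinase where the Myf5 promoter is or has been active, and a Cre-activated tdTomato reporter at the Rosa26 locus, so the sorted cells are those with a history of Cre activity and not muscle cells alone.

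The labels of the 2 libraries conflict. The sample title of the library with 15268 cell barcodes reads SRSF2f/f/Myf5-Cre/tdT, whereas the study's quality control pages head it Het/tdT. The title of the library with 12498 barcodes reads SRSF2f/w/Myf5-Cre/tdT, whereas it is headed MKO/tdT there. The deposited run summaries tag the first library WT and the second KO, whereas the colour key of the next supplementary figure follows the titles. Srsf2 itself stood at 219 UMIs per 1000000 UMIs (CPM) in the first library (95% interval 217 to 221) and at 153 CPM in the second (151 to 155), so it goes against the titles, although 3′ reads show only part of what a floxed allele loses. Muscle cells, as classed below, were 11.8% and 0.686% of kept cells. The libraries are called the library headed Het/tdT and the library headed MKO/tdT by those headings, shortened to Het/tdT and MKO/tdT, and every ratio below changes sign if the titles are right. The libraries held 156093779 and 128116615 UMIs, with medians of 9219 and 8105.5 per barcode, and shared 74 barcode sequences. After quality limits 12523 and 10345 cells remained. With 1 library per genotype no difference between genotypes can be tested, and all intervals are exact 95% intervals that cover counting error only.

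Collagens are triple helices of alpha chains, and the genes fall by role into groups. Types I (Col1a1, Col1a2) and III (Col3a1) build the striated fibrils of skin, tendon and bone, and type V (Col5a1, Col5a2) is incorporated into these fibrils and limits their diameter. Type VI (Col6a1, Col6a2, Col6a3) forms beaded microfilaments around cells, muscle fibres included, and types XII (Col12a1) and XIV (Col14a1) bind to fibril surfaces. Fibroblasts, tendon cells and osteoblasts are known as their main sources.

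The 10 genes lie on 7 chromosomes of the mm10 (GRCm38) genome in the GENCODE M21 annotation. Col1a1 lies at chr11:94936224-94953042 on the plus strand and Col1a2 at chr6:4504814-4541544 on the plus strand. Col3a1 (chr1:45311538-45349706, plus strand) and Col5a2 (chr1:45374321-45503282, minus strand) point towards each other, with 24614 bases and no coding gene between them. Col6a2 (chr10:76595762-76623630) and Col6a1 (chr10:76708792-76726168) are neighbours on the minus strand, 85161 bases apart. Col5a1 lies at chr2:27886425-28039514, Col6a3 at chr1:90765923-90843971, Col12a1 at chr9:79598991-79718831 and Col14a1 at chr15:55307750-55520803. Col5a1, Col12a1 and Col14a1 each overlap counted noncoding genes on the opposite strand, none of which reached more than 251 UMIs in the kept cells of both libraries together.

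Promoter sequence in the RefSeq table (GRCm38.p6) was found for 6 of the 10 genes. The 150 bases before the RefSeq start are shown for Col1a2 and Col3a1, the highest genes of the fibrillar group in fibroblasts, and for Col6a1 and Col6a3, whose levels parted in muscle cells. Capitals mark the motif GGAGGG (on the other strand CCCTCC), the motif CCAAT and the motif TATAAA, each searched on both strands, and none of the 3 motifs overlaps another in these stretches.
Col1a2 (chr6:4505468-4505617, plus strand): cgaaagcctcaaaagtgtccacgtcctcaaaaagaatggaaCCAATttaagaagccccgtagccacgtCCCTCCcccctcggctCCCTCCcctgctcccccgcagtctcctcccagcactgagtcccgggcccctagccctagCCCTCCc
Col3a1 (chr1:45311388-45311537, plus strand): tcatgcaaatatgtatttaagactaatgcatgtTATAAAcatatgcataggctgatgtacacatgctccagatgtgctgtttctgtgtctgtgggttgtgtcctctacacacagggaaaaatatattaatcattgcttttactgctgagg
Col6a1 (chr10:76726045-76726194, minus strand): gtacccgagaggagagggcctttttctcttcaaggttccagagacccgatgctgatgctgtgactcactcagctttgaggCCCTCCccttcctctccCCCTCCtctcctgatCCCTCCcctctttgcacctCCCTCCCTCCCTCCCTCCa
Col6a3 (chr1:90843972-90844121, minus strand): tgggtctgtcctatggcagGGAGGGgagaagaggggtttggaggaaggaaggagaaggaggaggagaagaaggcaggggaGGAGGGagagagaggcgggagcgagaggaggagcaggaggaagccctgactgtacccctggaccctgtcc
GGAGGG occurred 7 times before Col6a1 in overlapping runs, 3 times before Col1a2, 2 times each before Col5a1, Col6a2 and Col6a3, and 0 times before Col3a1, while 26.3% of all 32851 promoter stretches of this length held it at least once. CCAAT was found before Col1a2 alone among the 6 (24.5% of all stretches held it) and TATAAA before Col3a1 alone (7.57%). The RefSeq starts of Col1a2 and Col6a1 lie 804 and 124 bases inside the GENCODE gene, so those stretches fall within or partly within annotated transcripts. A match to these letters is a description of the sequence and not a binding site.

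Cells were placed in 12 classes by summed UMIs of marker genes, none of them a collagen: at least 3 UMIs for the class and at most 2 for every other, with the mesenchymal sum left free for tendon, chondrocyte, osteoblast and mural cells. This gave 2573 and 1939 mesenchymal cells (Het/tdT and MKO/tdT), 655 and 347 tendon cells, 2518 and 2407 chondrocytes, 162 and 91 osteoblasts, 1474 and 71 muscle cells, 240 and 595 endothelial cells and 153 and 74 cells with mural markers. Neurons (404 and 779) and immune cells (81 and 379) were assumed not to make these chains and gave the background from free RNA. This assumption was not tested. Cells that reached more than 1 class, 24.0% and 24.8% of kept cells, and cells that reached none, 8.34% and 8.68%, were left out. Tnmd, Thbs4 and Scx led in tendon cells and Ibsp and Ifitm5 in osteoblasts. These are among the markers that set the classes, so they give no independent check of the names. The mural label held only in part: of the 153 and 74 cells, 124 and 58 had more than 2 mesenchymal marker UMIs. In these the fibroblast proteoglycan gene Dcn stood at 1118 and 910 CPM, close to mesenchymal cells (1127 and 860 CPM). The other 29 and 16 cells had Dcn at 71.6 and 98.3 CPM and are given separately. Chondrocytes, tendon cells and osteoblasts were not split in this way. Their mesenchymal marker sums stood at 390 and 435, 664 and 1119, and 673 and 915 CPM, against 1232 and 1275 CPM in mesenchymal cells.

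All 10 genes exceeded the background in mesenchymal, tendon, chondrocyte and osteoblast cells and in cells with mural markers, in both libraries. The share of all genes above this background was not worked out for any class. Counts of the 10 genes above it, here and below, therefore stand without that comparison. Together they made up 1.79% and 1.28% of the UMIs of osteoblasts, 1.32% and 1.19% in tendon cells, 1.25% and 0.893% in mesenchymal cells and 0.482% and 0.424% in chondrocytes (Het/tdT and MKO/tdT). In muscle cells the share was 0.0782% and 0.0432%, in endothelial cells 0.0609% and 0.0268%, in neurons 0.0507% and 0.0361% and in immune cells 0.0271% and 0.0193%. Because 3′ counting gives about 1 UMI per captured transcript whatever its length, CPM values of different genes are set side by side below without a length correction.

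**Figure D1:**
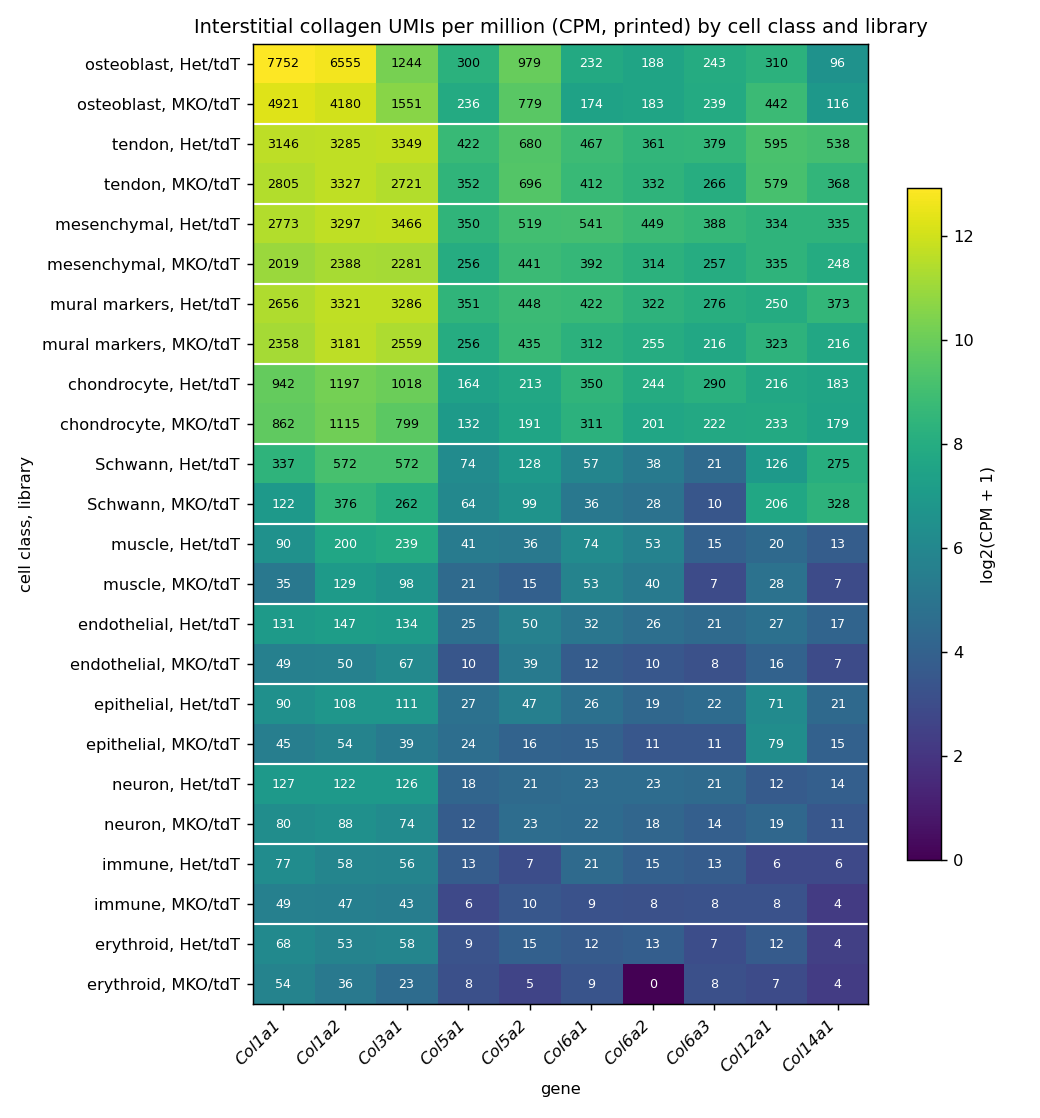
UMIs per 1000000 UMIs (CPM, printed in each cell) of the 10 genes (columns) in 12 cell classes of both libraries (rows), with colour giving log2(CPM + 1). Osteoblasts held the highest Col1a1, at 7752 and 4921 CPM, against 127 and 80.4 CPM in neurons and 76.7 and 49.2 CPM in immune cells.

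Type I collagen led in osteoblasts. Col1a1 stood at 7752 CPM (7636 to 7870) in Het/tdT and 4921 CPM (4794 to 5050) in MKO/tdT, and ranked 4th and 20th among all genes by UMIs there. Of the mesenchymal, tendon and chondrocyte classes, tendon cells followed with 3146 and 2805 CPM, then mesenchymal cells with 2773 and 2019 CPM and chondrocytes with 942 and 862 CPM. Col1a2 had the same order at its head, with 6555 and 4180 CPM in osteoblasts, but tendon and mesenchymal cells of Het/tdT did not differ beyond counting error (3285 CPM, 3240 to 3329, against 3297 CPM, 3275 to 3320). In chondrocytes Col1a2 stood at 1197 and 1115 CPM. A type I molecule holds more chains from Col1a1 than from Col1a2, and the UMIs of Col1a1 exceeded those of Col1a2 only in osteoblasts among the 4 classes, at 1.18 per Col1a2 UMI in both libraries (1.16 to 1.21 and 1.13 to 1.22). The ratio was 0.84 and 0.85 in mesenchymal cells and 0.79 and 0.77 in chondrocytes.

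Col3a1 had a different order. It was highest in mesenchymal cells of Het/tdT, at 3466 CPM (3443 to 3489), just above tendon cells at 3349 CPM (3304 to 3394), while in MKO/tdT tendon cells stood above mesenchymal cells with 2721 against 2281 CPM. In osteoblasts Col3a1 was at 1244 and 1551 CPM, so that 0.19 and 0.37 Col3a1 UMIs were counted per Col1a2 UMI against 1.05 and 0.96 in mesenchymal cells. Chondrocytes held 1018 and 799 CPM.

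The type V genes differed from each other. Col5a2 followed type I, highest in osteoblasts at 979 and 779 CPM, then tendon cells at 680 and 696 CPM and mesenchymal cells at 519 and 441 CPM. Col5a1 was highest in tendon cells at 422 and 352 CPM, and osteoblasts held 300 and 236 CPM. Per Col5a2 UMI, 0.31 and 0.30 Col5a1 UMIs were counted in osteoblasts, 0.62 and 0.51 in tendon cells, 0.67 and 0.58 in mesenchymal cells and 0.77 and 0.69 in chondrocytes.

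In type VI, Col6a1 stood at 541 and 392 CPM in mesenchymal cells, 467 and 412 CPM in tendon cells, 350 and 311 CPM in chondrocytes and 232 and 174 CPM in osteoblasts. Col6a2 and Col6a3 also had their lowest level of the 4 classes in osteoblasts in Het/tdT, at 188 and 243 CPM, whereas in MKO/tdT Col6a3 in osteoblasts (239 CPM, 212 to 269) could not be told from that in chondrocytes (222 CPM, 216 to 227). The 3 genes made up 18.4% and 17.3% of the UMIs of the family in chondrocytes but 3.70% and 4.65% in osteoblasts. Counts of Col6a1 per Col6a2 lay between 0.95 and 1.55 in the 4 classes.

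The fibril-surface genes were highest in tendon cells. Col12a1 was at 595 CPM (576 to 614) and 579 CPM (555 to 603) there, against 334 and 335 CPM in mesenchymal cells, 310 and 442 CPM in osteoblasts and 216 and 233 CPM in chondrocytes. Col14a1 was at 538 and 368 CPM in tendon cells, 335 and 248 CPM in mesenchymal cells and 183 and 179 CPM in chondrocytes, and lowest in osteoblasts with 96.1 and 116 CPM. Col12a1 UMIs per Col14a1 UMI were accordingly 3.23 and 3.80 in osteoblasts against 1.11 and 1.57 in tendon cells.

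**Figure D2:**
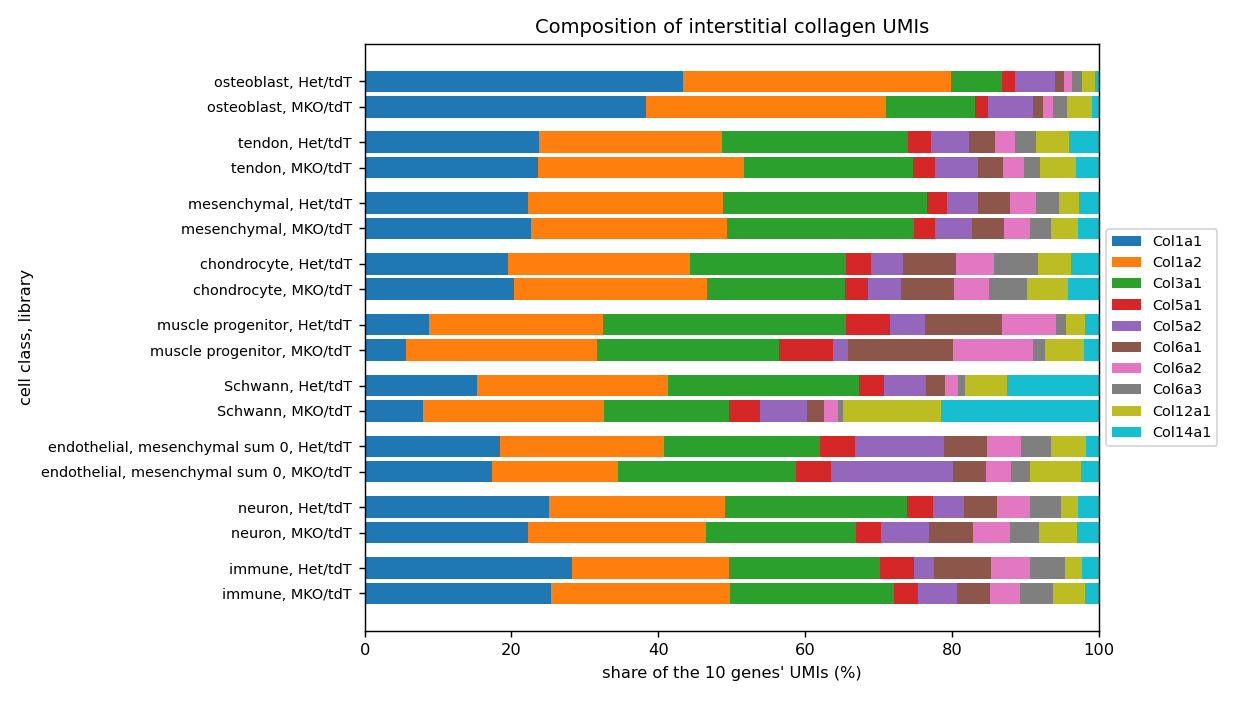
Share of each gene (colour) in the UMIs of the 10 genes together (horizontal axis, percent), with a bar per cell class and library. Osteoblasts are mostly Col1a1 and Col1a2, muscle progenitors hold little Col1a1 and Col6a3, and Schwann cells hold a Col14a1 share of 12.5% and 21.4%.

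Single cells of a class varied widely. Among mesenchymal cells with at least 5000 UMIs, Col1a2 had a median of 25.6 UMIs per 10000 UMIs of the cell in Het/tdT (10th to 90th percentile 6.52 to 68.3; 2345 cells) and 13.2 in MKO/tdT (2.77 to 52.8; 1616 cells). For tendon cells the medians were closer, 28.0 and 26.0. Col3a1 medians were 30.1 and 15.9 in mesenchymal cells and 9.25 and 10.7 in osteoblasts. Chondrocytes had low medians beside a long upper tail, with Col3a1 at 3.26 and 2.42 at the median but 33.7 and 24.1 at the 90th percentile. Mesenchymal markers were left free in this class, and their part in the tail was not tested. Across mesenchymal cells, log2 values of Col1a1 and Col1a2 had Pearson's r of 0.84 and 0.80, and Col6a1 and Col6a2 0.54 and 0.61. In osteoblasts Col1a1 and Col1a2 had r of 0.95 and 0.81, but Col1a1 and Col3a1 -0.16 and 0.057, and Col3a1 and Col6a1 0.68 and 0.58. The cells share a library and differ in depth, and these values describe them with no test.

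**Figure D3:**
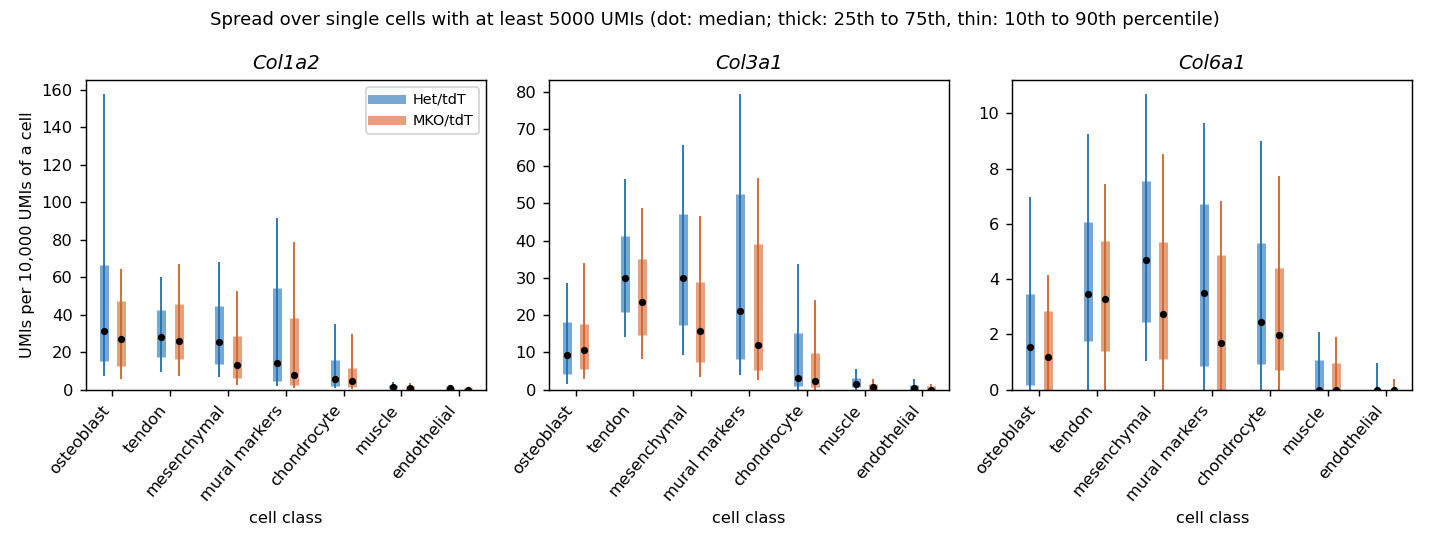
UMIs per 10000 UMIs of a cell (vertical axis) of Col1a2, Col3a1 and Col6a1 in single cells with at least 5000 UMIs, by class and library; dots are medians, thick bars span the 25th to 75th and thin bars the 10th to 90th percentile. The mesenchymal Col1a2 median was 25.6 in Het/tdT and 13.2 in MKO/tdT, with overlapping ranges.

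Mesenchymal cells were also split into subsets by further markers. Dermal cells (Twist2, Crabp1 and Lef1; 424 and 344 cells) held 8678 and 6844 CPM of the 10 genes together and muscle connective tissue cells (Osr1, Osr2 and Meox2; 125 and 142 cells) 7849 and 6849 CPM, against 13383 and 9559 CPM in the remaining mesenchymal cells (1994 and 1443 cells). A subset excluded cells with any marker UMI of another subset, so the remaining cells can carry markers of several. Their median depth was 9305.5 and 7877 UMIs, against 8076 and 7436 in dermal and 7086 and 7170.5 in muscle connective cells. Col6a1, Col6a2 and Col6a3 followed the order of the summed levels less in Het/tdT: Col6a3 stood at 400.2 CPM in dermal, 391 CPM in muscle connective and 384 CPM in the remaining cells. Fascia-type cells, only 30 and 10 in number, held 13518 and 11792 CPM.

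In muscle cells the 10 genes differed in their level against background, and the number above it depended on the class rule, on depth and on the subset. Muscle cells here are committed progenitors and myocytes marked by Pax7, Myf5, Myod1, Myog, Cdh15 and Chrna1, and each of their levels is read against the larger of the neuron and immune backgrounds of the same library. In Het/tdT, Col3a1 stood at 239 CPM (232 to 246) against 126 CPM in neurons, Col1a2 at 199.6 CPM (194 to 206) against 122 CPM, Col6a1 at 74.3 CPM (70.6 to 78.1) against 22.9 CPM and Col6a2 at 52.8 CPM (49.7 to 56.0) against 22.5 CPM. Col5a1, Col5a2 and Col12a1 were also above background, at 41.1, 36.2 and 20.1 CPM against 17.6, 21.4 and 12.0 CPM. Col1a1, the partner of Col1a2, was below it at 90.4 CPM (86.4 to 94.6) against 127 CPM, and so was Col6a3 at 15.3 CPM against 21.4 CPM, while Col14a1 could not be told from it. In MKO/tdT, with 71 muscle cells, 5 of the 10 genes were above background (Col1a2, Col3a1, Col5a1, Col6a1 and Col6a2) and Col1a1 was again below it, at 34.9 CPM against 80.4 CPM. Neurons gave these Col1a1 backgrounds at median depths of 5776 and 5959 UMIs, against 13517.5 and 13482 in muscle cells. Immune cells (10091 and 12612 UMIs) held Col1a1 at 76.7 CPM (60.1 to 96.4) and 49.2 CPM (43.4 to 55.7). In both libraries the immune interval overlaps the one of muscle cells, which was 86.4 to 94.6 CPM in Het/tdT and 24.4 to 48.3 CPM in MKO/tdT.

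Gene ratios and other markers are given beside these levels. Per Col1a2 UMI, 0.45 (0.43 to 0.48) and 0.27 (0.18 to 0.39) Col1a1 UMIs were counted in muscle cells, against 1.04 (0.89 to 1.22) and 0.92 (0.80 to 1.05) in neurons. Per Col6a1 UMI, 0.21 and 0.13 Col6a3 UMIs were counted in muscle cells, against 0.93 and 0.65 in neurons and 0.72 and 0.66 in mesenchymal cells. Dcn, abundant in fibroblasts, was at 14.9 and 5.82 CPM in muscle cells and 16.1 CPM in neurons of each library, and in muscle cells without any mesenchymal marker UMI Col3a1 stood at 187 CPM and Col6a1 at 60.7 CPM in Het/tdT. After each cell was thinned to 2000 UMIs, 32.4% of Het/tdT muscle cells had a Col3a1 UMI against 21.2% of neurons, and 15.0% had a Col1a1 UMI against 22.5% of neurons. Unthinned shares were 79.9% against 44.6% and 61.1% against 48.8%, at median depths of 13517.5 and 5776 UMIs. With cells assigned by their largest marker sum, 1 and 0 of the 10 genes exceeded a background that itself had risen to 1480 and 914 CPM for the 10 genes in neurons.

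Progenitors and differentiating muscle cells were also read separately, without a test of their difference. In cells with Pax7 or Myf5 and no Myog UMI (530 and 23 cells), Col3a1 stood at 374 and 189 CPM, Col1a2 at 267 and 199 CPM, Col6a1 at 118 and 109 CPM, Col6a2 at 82.6 and 83.8 CPM and Col5a1 at 67.4 and 55.9 CPM, and 8 and 6 of the 10 genes were above background. Col6a3 remained at 15.6 and 12.4 CPM and Col1a1 at 98.5 and 43.5 CPM, neither above it. In differentiating cells with Myog and neither Pax7 nor Myf5 (545 and 35 cells), 0 of the 10 genes exceeded background in either library. There Col3a1 was at 86.0 and 42.0 CPM and Col6a1 at 21.0 and 22.0 CPM. Median depth was 12581 and 13482 UMIs in these cells and 5776 and 5959 in neurons. The part of depth in the background CPM was not tested, and the share of all genes above background was not worked out for these cells.

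**Figure D4:**
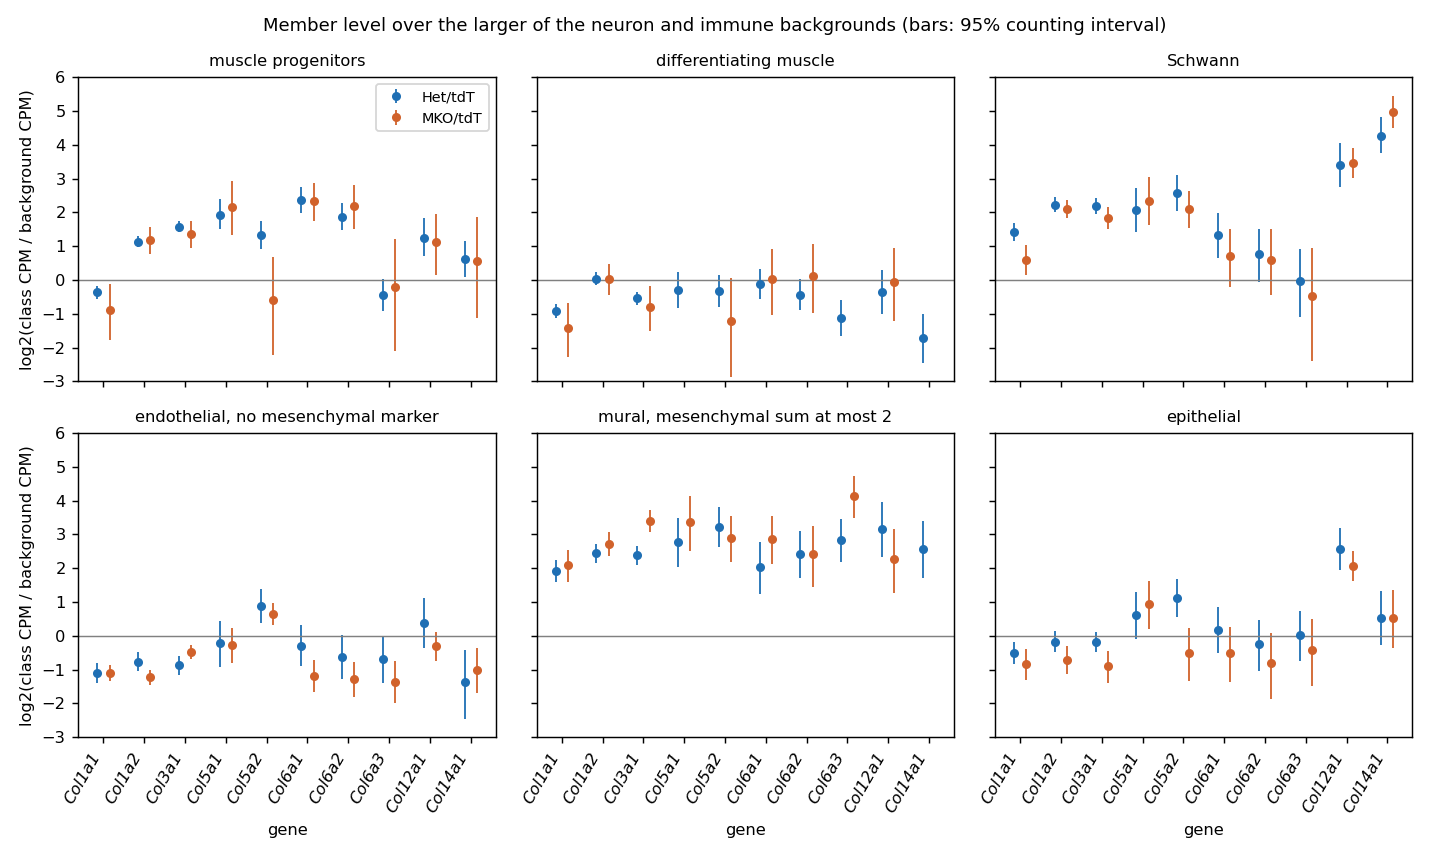
log2 of the CPM in a class over the larger of the neuron and immune CPM of the same library (vertical axis) for each gene with more than 3 UMIs in the class, with exact 95% counting intervals, in 6 groups of cells. Muscle progenitors lie above 0 for Col6a1 by 2.36 and 2.32 and not for Col1a1 or Col6a3, and Schwann cells lie above 0 for Col14a1 by 4.27 and 4.95.

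In endothelial cells, which line vessels, Col5a2 was above background in both libraries. It stood at 49.8 CPM (42.2 to 58.4) and 38.7 CPM (34.8 to 43.0) against 21.4 and 23.3 CPM in neurons, and remained at 39.4 and 36.2 CPM in endothelial cells without mesenchymal marker UMIs. Col5a2 was at 44.0 and 33.3 CPM in lymphatic endothelium (Prox1, Lyve1, Ccl21a and Mmrn1; 123 and 361 cells) and at 67.8 and 57.7 CPM in blood endothelium (87 and 127 cells). Blood endothelium was set only by the absence of UMIs of these lymphatic markers, with no blood vessel marker. Its median depth was 9247 and 9273 UMIs, against 10670 and 13635 in lymphatic endothelium. In Het/tdT, Col1a2, Col6a1 and Col12a1 also exceeded background in the whole class, but not in cells without mesenchymal marker UMIs, and in MKO/tdT Col5a2 was the only one of the 10 above it. Blood endothelium of Het/tdT had 9 genes above background together with Dcn at 108 CPM, against 15.99 CPM of Dcn in lymphatic endothelium. The part of fibroblast RNA in these values was not tested.

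Cells with mural markers and at most 2 mesenchymal UMIs (29 and 16) held less collagen than fibroblasts and more than endothelium. Col3a1 was at 658 and 779 CPM, Col1a2 at 662 and 582 CPM, Col1a1 at 483 and 340 CPM and Col6a3 at 152 and 249.6 CPM. All 10 genes exceeded background in Het/tdT and 9 in MKO/tdT, where Col14a1 had 2 UMIs in all. The cells with mural markers and more mesenchymal UMIs had 2946 and 2719 CPM of Col1a1, against 2773 and 2019 CPM in mesenchymal cells.

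Between the libraries, collagen levels in mesenchymal cells were lower in MKO/tdT for 9 of the 10 genes. Of all 9860 genes tested there, 57.9% had a log2 ratio below the 0.0031 of Col12a1, the remaining gene. For the 9 this share ran from 4.12% (Col3a1) to 26.3% (Col5a2). Col3a1 stood at 3466 CPM in Het/tdT and 2281 CPM in MKO/tdT (log2 of MKO/tdT over Het/tdT -0.60, -0.62 to -0.59), and Col6a3 at 388 and 257 CPM, -0.59 (-0.64 to -0.54). Col6a2 (449 and 314 CPM; -0.51), Col1a2 (-0.47), Col6a1 (-0.46), Col1a1 (-0.46), Col5a1 (-0.45), Col14a1 (-0.43) and Col5a2 (519 and 441 CPM; -0.24) followed. Col12a1 had nearly equal levels, 334 and 335 CPM (log2 ratio interval -0.05 to 0.05). Past the 1.5-fold limit (a log2 ratio of 0.58) lay 2 of the 10 genes as lower, Col3a1 and Col6a3, where 4.67% of the 9860 genes with at least 200 UMIs did so, and 0 as higher, where 3.28% did. The median log2 ratio was -0.46 over the 10 genes and -0.055 over all genes tested. The count of 2 depended on how cells were chosen, from 0 with cells assigned by their largest marker sum to 5 with stricter limits on other markers or with cells thinned to equal depth.

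In mesenchymal cells the gap between libraries was larger in non-cycling than in cycling cells, a difference that was not tested. In mesenchymal cells with 0 UMIs of 6 proliferation genes (957 and 1048 cells) the 10 genes together stood at 13011 and 8487 CPM, a log2 ratio of -0.62 (-0.63 to -0.60), and in cells with at least 3 such UMIs (759 and 331 cells) at 11200.5 and 9558 CPM, -0.23 (-0.25 to -0.21). The median log2 ratio of the 10 genes was -0.59 in non-cycling and -0.22 in cycling cells, against -0.040 and -0.023 over all genes tested. Col12a1 was at 376 and 336 CPM in non-cycling and at 264 and 292 CPM in cycling cells. Median depth was 7780 and 7009.5 UMIs in the non-cycling cells and 11722 and 11291 in the cycling cells. Tendon cells had the opposite order, with summed log2 ratios of -0.11 in non-cycling and -0.25 in cycling cells. Chondrocytes had the same order as mesenchymal cells, with -0.30 in non-cycling and -0.20 in cycling cells. By subset, the summed log2 ratio was -0.34 in dermal, -0.20 in muscle connective and -0.49 in the remaining mesenchymal cells. In muscle connective cells Col1a1 and Col1a2 were at similar levels, 1370 and 1408 CPM and 1657 and 1703 CPM. Col6a1 (-0.66) and Col6a3 (-0.63) were lower past 1.5-fold there. In dermal cells Col12a1 was higher in MKO/tdT, with 204 and 305 CPM (0.58, 0.43 to 0.72), just under the 1.5-fold limit. Col6a2 (-0.68) and Col3a1 (-0.59) were lower past it in dermal cells. The share of all genes past the limit was not worked out for the subsets.

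**Figure D5:**
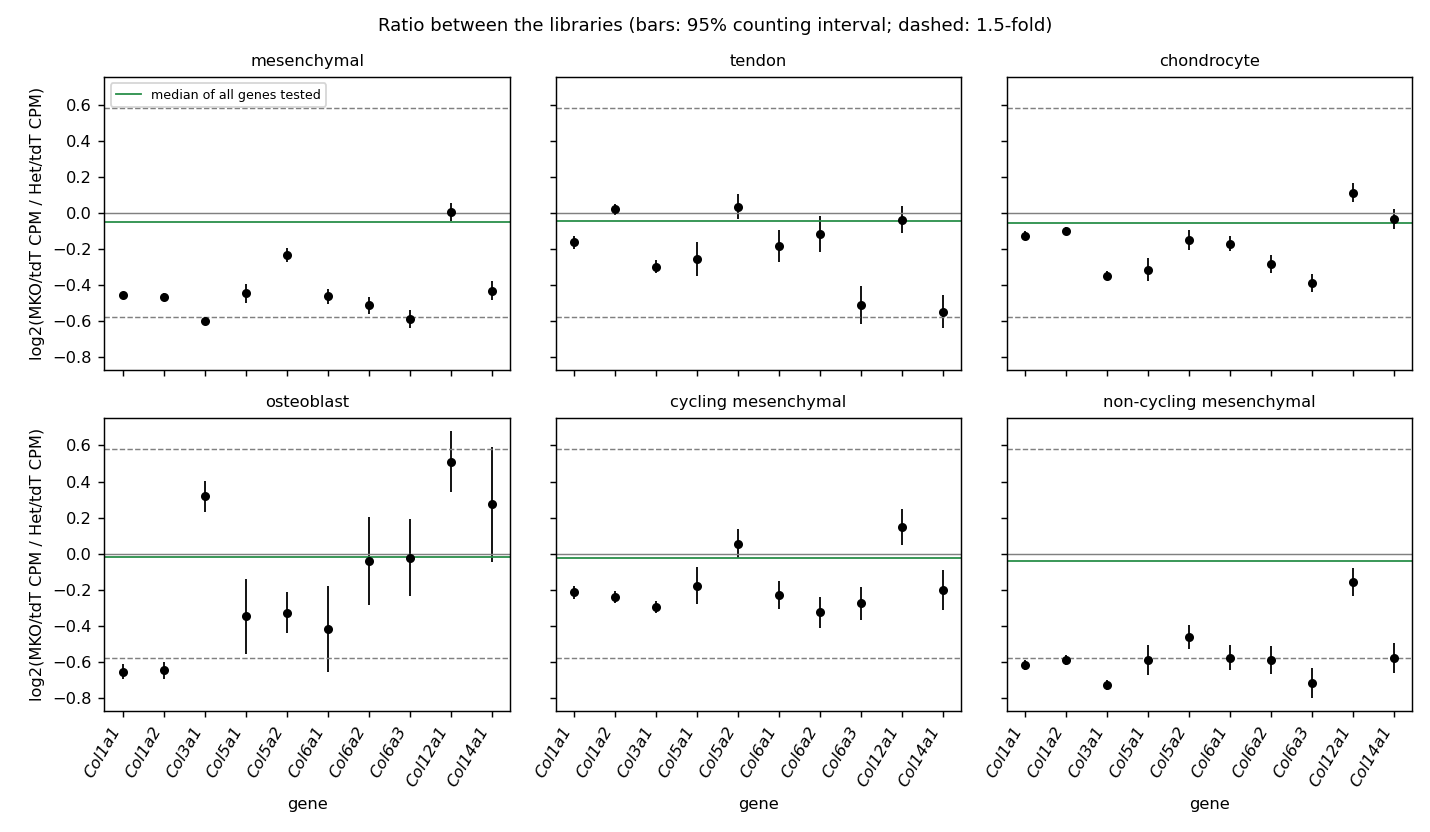
log2 of MKO/tdT CPM over Het/tdT CPM (vertical axis) for each gene in 4 classes and in cycling and non-cycling mesenchymal cells, with exact 95% counting intervals; dashed lines mark 1.5-fold and the green line the median of all genes with at least 200 UMIs. Col3a1 lies at -0.60 in mesenchymal cells and 0.32 in osteoblasts.

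In tendon cells Col1a2 (3285 and 3327 CPM), Col5a2 (680 and 696 CPM) and Col12a1 (595 and 579 CPM) had counting intervals of the log2 ratio that included 0, and the largest gaps were Col14a1 with 538 and 368 CPM (-0.55, -0.64 to -0.46) and Col6a3 with 379 and 266 CPM (-0.51, -0.62 to -0.41). None of the 10 genes passed 1.5-fold in tendon cells, where 3.61% of 5839 genes were lower and 2.36% higher. In cycling tendon cells 2 of the 10 were lower past it, the lowest at -0.76. The share of all genes was not worked out for that subset. Tendon markers stood at 1037 and 792 CPM in tendon cells and mesenchymal markers at 664 and 1119 CPM. Their part in the ratios was not tested. In chondrocytes the lowest ratio was that of Col6a3, with 290 and 222 CPM (-0.39, -0.44 to -0.34), and Col12a1 was slightly higher with 216 and 233 CPM (0.11, 0.06 to 0.16). None of the 10 passed the limit there either, against 2.29% of 10121 genes lower and 1.29% higher.

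In osteoblasts the genes parted. Col1a1 was lower in MKO/tdT with 7752 and 4921 CPM (-0.66, -0.70 to -0.61) and Col1a2 with 6555 and 4180 CPM (-0.65, -0.70 to -0.60), whereas Col3a1 was higher with 1244 and 1551 CPM (0.32, 0.23 to 0.40) and Col12a1 with 310 and 442 CPM (0.51, 0.34 to 0.68). Type I was thus past 1.5-fold, 2 of 10 genes where 2.72% of 2313 genes were lower and 1.47% higher, but 4 genes were with a class limit of 5 UMIs and 0 with a limit of 2. The osteoblast markers moved in the same direction as type I: the summed level of all 6 (Sp7, Ibsp, Alpl, Ifitm5, Bglap and Dmp1, each detected in both libraries) was 17247 CPM in Het/tdT and 9380 CPM in MKO/tdT, and its part in the ratio was not tested.

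Among cells with mural markers 1 of 10 genes was lower past 1.5-fold (4.36% of 2177 genes lower, 2.2% higher), Col14a1 with 373 and 216 CPM (-0.79, -1.03 to -0.56). With at most 2 mesenchymal UMIs, the summed log2 ratio was -0.037 (-0.23 to 0.16). In muscle cells 7 of 10 genes were lower past the limit, where 9.7% of 7240 genes were lower and 3.51% higher, and the 71 cells of MKO/tdT held 446 UMIs of the 10 genes. Among the 7, Col6a3 and Col14a1 had 7 UMIs each in MKO/tdT, and the interval of Col14a1 included 0 (-2.27 to 0.12). Col1a1, Col6a3 and Col14a1, also among the 7, were not above background in Het/tdT. With cells thinned to 2000 UMIs the count of genes past the limit was 3. The limit of 200 UMIs a gene was kept, so genes could go untested, and the fall from 7 does not show that a gap closed. Within muscle progenitors Col6a1 (118 and 109 CPM) and Col6a2 (82.6 and 83.8 CPM) differed by less than counting error while Col3a1 was lower with 374 and 189 CPM (-0.98, -1.37 to -0.61). In endothelial cells 5 of the 6 genes with at least 200 UMIs were lower past the limit (1.83% of 5852 genes lower, 1.74% higher), among them Col1a2 with 147 and 49.9 CPM. Col5a2 was lower without passing it (-0.36, -0.64 to -0.08). Dcn was lower there too, at 41.6 and 9.16 CPM. Without mesenchymal marker UMIs, the 4 genes with at least 200 UMIs had a median log2 ratio of -0.52, against 0.019 over all genes tested. With cells thinned to 2000 UMIs (240 and 588 cells), 0 of the 10 genes were lower past the limit in endothelial cells. The limit of 200 UMIs a gene was kept there, so genes went untested for lack of counts. This 0 therefore does not show that the gap closed. The summed background moved the same way, from 507 to 361 CPM of the 10 genes in neurons (-0.49, -0.59 to -0.39) and from 271 to 193 CPM in immune cells (-0.49, -0.69 to -0.28). In neurons the 3 genes with at least 200 UMIs were all lower. Col12a1, with fewer UMIs, was higher there at 12.0 and 18.6 CPM (0.63, 0.05 to 1.26). With the larger background subtracted, the summed log2 ratio in muscle cells was -1.95. No such ratio could be formed in endothelial cells, where the 10 genes in MKO/tdT (268 CPM) lay below the 361 CPM of neurons. Whether levels in muscle and endothelial cells differ by more than this background was not tested.

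Genes that act on collagen chains or bind collagen were read in mesenchymal cells beside the shares of all genes past the limit there (4.67% lower, 3.28% higher), and no difference between lists was tested. Of 19 genes for chain modification and folding, 2 were lower past 1.5-fold and 0 higher, with a median log2 ratio of -0.19. Creb3l1, a transcription factor of secretory cells, stood at 69.95 and 43.0 CPM (-0.70), and P3h2, a prolyl 3-hydroxylase, at 15.8 and 10.2 CPM (-0.63). Plod2, a lysyl hydroxylase, was in the other direction with 91.7 and 117 CPM (0.35). Of 8 measured genes for propeptide removal and cross-linking 0 passed the limit in either direction (median -0.095), with Lox, the cross-linking lysyl oxidase, at 158 and 145 CPM and Adamts2, the N-propeptidase, at 40.4 and 29.0 CPM.

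Of 14 measured genes for matrix proteins bound to fibrils, 4 were lower and 1 higher (median -0.35). Postn was at 576 and 331 CPM (-0.80), Dpt (dermatopontin) at 164 and 71.9 CPM (-1.19) Prelp, a small proteoglycan, at 13.1 and 7.93 CPM (-0.72) and Tnxb (tenascin X) at 9.40 and 2.34 CPM (-2.00), whereas Fmod (fibromodulin) was at 16.1 and 26.3 CPM (0.71). Of 11 receptors and turnover genes 1 was lower, Fap, a fibroblast surface protease, with 36.6 and 22.4 CPM (-0.71), and 0 higher (median -0.035). Of 24 other collagen genes 3 were lower (Col15a1 with 15.7 and 7.63 CPM, Col6a6 with 27.6 and 16.1 CPM and Col7a1 with 19.7 and 12.4 CPM) and 2 higher, Col8a1 with 40.2 and 74.2 CPM (0.89) and Col9a1 with 54.9 and 82.2 CPM (0.58), and their median of 0.085 lay above that of all genes.

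The pattern over classes was shared within the family. Over 24 points (12 classes in 2 libraries), log2(CPM + 1) of Col1a2 and Col5a1 had the highest r of any pair, 0.98, and Col6a3 and Col14a1 the lowest, 0.83. Among 9076 genes with at least 2000 UMIs, the 10 outside the family most like the mean of the 10 genes were Bicc1, Efemp2, Thbs2, Tnfaip6, Pkdcc, Serpinf1, Fbn2, Prrx1, Adamts2 and Twist1, with r from 0.96 to 0.97. Prrx1 and Twist1 were among the markers that set the mesenchymal class. The points share 2 libraries and their free RNA, so the values are descriptive.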

How the data were processed

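Single-cell RNA sequencing was done on tdTomato+ cells of E14 mouse embryos with 10x Genomics 3′ v3.1 chemistry, 1 library per genotype. The authors aligned reads to mm10 and deposited a matrix of raw UMI counts per gene and barcode; the submitters' notes name Cell Ranger 3.1.0, STAR and Seurat 3.1.1, and the matrix header names Cell Ranger 5.0.0. Barcode suffixes were matched to libraries by their numbers of cells.

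Cells within 2 SD of the mean log10 UMIs and log10 genes of their library and with at most 10% mitochondrial UMIs were kept. UMIs were summed per class and library and divided by all UMIs of the class (CPM). Levels have exact Poisson intervals and ratios and shares exact Clopper-Pearson intervals, all at 95%. No test was run, since each group is 1 library, and calls mean past 1.5-fold (log2 0.58) among genes with at least 200 UMIs in the class. Doublets were not called by a tool; cells reaching more than 1 class were left out. Ratio intervals were tried on simulated Poisson counts without spread between cells or libraries, which covers counting error only. The genes named are the 10, up to 5 per list with the largest mesenchymal log2 ratio (Lox, Plod2 and the like), the 10 most alike genes by r, and the label check Srsf2. Dcn was chosen after its values were seen. The members and lists were chosen with earlier results of these data known. Python 3.11.15, NumPy 2.4.6, SciPy 1.17.1, pandas 2.3.3 and matplotlib 3.10.9 were used. Alternatives varied the quality limits, the class limits, depth (cells with at least 5000 UMIs, or each cell thinned to 2000 UMIs), the denominator, background subtraction and the fold limit.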

Additional observations from a re-analysis of the deposited data

Results flagged for a closer look

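Cell classes outside the comparisons above also held collagen RNA above background. In cells with Schwann markers (79 and 63 cells, Het/tdT and MKO/tdT), whose leading genes included the pigment cell genes Dct and Pmel, Col14a1 stood at 275 and 328 CPM and Col12a1 at 126 and 206 CPM, against 14.3 and 10.6 CPM and 12.0 and 18.6 CPM in neurons. Col1a2 (572 and 376 CPM), Col3a1 (572 and 262 CPM), Col5a1 (74.4 and 63.5 CPM) and Col5a2 (128 and 99.1 CPM) were at least 2 times the background at the lower bound of their intervals in both libraries, whereas Col6a3 was not above it (21.0 and 10.2 CPM). Dcn was at 15.3 and 43.2 CPM in these cells. In epithelial cells (75 and 69 cells) Col12a1 stood at 71.0 and 78.7 CPM, above background by 2.56 and 2.08 on the log2 scale, while Col1a1 was below it at 89.9 and 45.1 CPM. Dcn was at 264 and 247 CPM there, and median depth was 12868 and 14329 UMIs against 5776 and 5959 in neurons.

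For 2 genes the classes pointed in opposite directions between the libraries, and the difference between classes was not tested. Col3a1 had a log2 ratio of 0.32 in osteoblasts against -0.60 in mesenchymal, -1.01 in endothelial and -1.29 in muscle cells. Col12a1 had ratios of 0.11 in chondrocytes, 0.51 in osteoblasts and 0.37 in cells with mural markers against -0.73 in endothelial cells. In endothelial cells Col3a1 was not above background in either library, at 134 and 66.7 CPM against 126 and 73.6 CPM in neurons. Col12a1 was not above it there in MKO/tdT, at 16.0 against 18.6 CPM. The part of free RNA in these endothelial ratios was not tested.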

How the results depend on the processing

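No paired analysis was possible because each genotype has 1 library, and no replicate could be left out. The summed log2 ratio of the 10 genes (MKO/tdT over Het/tdT) stayed below 0 in all 7 classes under every alternative that gave a value. The exception was 0.0075 in tendon cells with cells assigned by their largest marker sum. That alternative, and the limits on mesenchymal sums (at most 2 for cells with mural markers, 0 for muscle and endothelial cells), were chosen after seeing the data. Leaving out the 2 SD limits or taking the 10 genes out of the denominator changed no value by more than counting error. The cause of the changes below was not tested.

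For mesenchymal cells (-0.48 as reported) the ratio was -0.49 with at most 5% mitochondrial UMIs, -0.46 with a class limit of 5 UMIs, -0.59 with a limit of 2 and others at most 1, -0.59 with other sums at most 1, -0.45 in cells with at least 5000 UMIs, -0.64 thinned to 2000 UMIs and -0.39 by largest sum. In the same order of settings, chondrocytes (-0.18) had -0.20, -0.20, -0.23, -0.15, a change within counting error at 5000 UMIs, -0.29 thinned and -0.20 by largest sum, and -0.15 with background subtracted. Endothelial cells (-1.18) had -1.29 (5% mitochondrial), -0.84 (limit 5), -0.66 (others at most 1), -1.08 (thinned), -0.90 (largest sum) and -0.57 (mesenchymal sum 0), and no value with background subtracted. Cells with mural markers (-0.21) had -0.25 (5% mitochondrial), -0.47 (limit 5), -0.39 (limit 2), -0.48 (thinned), -0.027 (largest sum) and -0.037 (mesenchymal sum at most 2). Muscle cells (-0.85) had -1.06 (limit 2), -1.04 (others at most 1) and -1.95 (background subtracted). Osteoblasts (-0.48) had -0.78 (limit 5), -0.22 (limit 2), -0.41 (others at most 1), -0.53 (thinned), -0.45 (no haemoglobin, mitochondrial or ribosomal protein genes in the denominator) and -0.41 (largest sum). Tendon cells (-0.16) had -0.095 (limit 5), -0.12 (others at most 1) and -0.12 (thinned).

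Genes above background in endothelial cells of Het/tdT, 4 as reported, were 1 under 5% mitochondrial UMIs, limit 5, limit 2, others at most 1 and mesenchymal sum 0, 2 when thinned and 0 by largest sum, and in MKO/tdT 0 by largest sum against 1. In muscle cells of Het/tdT they were 4 thinned and 1 by largest sum against 7. In MKO/tdT, against 5, they were 1 (limit 2), 2 (others at most 1), 3 (thinned), 0 (largest sum) and 3 (mesenchymal sum 0).

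Genes lower past the fold limit in mesenchymal cells, 2 as reported, were 1 with limit 5 or at least 5000 UMIs, 5 with limit 2, others at most 1 or thinning, and 0 at 2-fold or by largest sum. In endothelial cells, against 5, they were 3 (5% mitochondrial, limit 5, limit 2, others at most 1), 0 (thinned), 9 (genes with at least 50 UMIs), 8 (largest sum) and 2 (mesenchymal sum 0). Cells with mural markers had 0 at 2-fold, against 1. With a mesenchymal sum of at most 2 they also had 0, but only 2 of the genes reached 200 UMIs there. Col14a1, the gene lower as reported, was not among them, so this 0 does not show that its gap closed. Muscle cells, against 7, had 3 thinned and 4 at 2-fold or with mesenchymal sum 0. Osteoblasts, against 2, had 4 (limit 5), 1 (others at most 1) and 0 (limit 2, 2-fold, largest sum). No gene count higher in MKO/tdT changed.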
